A study of Mus musculus with 3 samples.

Results

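Cluster 0 is the group of 1186 cells that carry the number 0 in the deposited clustering of 4668 mouse brain and tumor cells. The members were taken by that number alone, with no value of this re-analysis used to choose them. The deposited clusters have numbers and no names, and cluster 0 is the biggest of 4 clusters (0, 2, 7 and 10) rich in the homeobox transcript Rhox5. It is set here beside clusters 2 (778 cells) and 7 (212 cells).

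The cells came from 4 brains of female C57BL/6 mice aged 2 to 3 months. Some were naive, and others bore metastases, about 2 weeks after E0771 cells, a mouse mammary carcinoma line, had been injected into the carotid artery. Every brain was digested with papain, enriched on a Percoll gradient, stained with 6 antibody tags and marked with a hashtag of its own, and all 4 were run as 1 pool. The sources used here do not say which hashtags were the naive brains, so the brains are named by hashtag, their number is 4, and none is called naive or metastatic. No barcode was listed more than once (0 of 4668).

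Rhox5 and Esx1 are X-linked homeobox genes, known from the reproductive tract and the placenta. S100A6 and S100A4 are small calcium-binding proteins of motile and growing cells. In the adult brain, transthyretin (Ttr) is the leading product of the choroid plexus, and Xist is the noncoding RNA that coats the inactive X chromosome of female cells.

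In the 11 clusters Esx1 had the pattern most like that of Rhox5, so the bases upstream of both genes are shown. The windows are the 250 bases before the start site in RefSeq (GRCm38.p6), for Rhox5 chrX:37754358-37754607 on the plus strand and for Esx1 chrX:137120327-137120576 on the minus strand, a window that lies within the annotated span of the Esx1 gene. Both are read 5′ to 3′ along the gene, and capitals mark matches on either strand to the TATA box (letters TATAAA), the CCAAT box, the GC box bound by Sp1 (letters GGGCGG) or the core of ETS sites (letters CCGGAA).
Rhox5: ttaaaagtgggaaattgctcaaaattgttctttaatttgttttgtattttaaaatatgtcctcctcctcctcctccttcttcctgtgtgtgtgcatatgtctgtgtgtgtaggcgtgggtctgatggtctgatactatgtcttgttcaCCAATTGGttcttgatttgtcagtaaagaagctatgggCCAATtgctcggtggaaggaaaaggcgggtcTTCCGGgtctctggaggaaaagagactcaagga
Esx1: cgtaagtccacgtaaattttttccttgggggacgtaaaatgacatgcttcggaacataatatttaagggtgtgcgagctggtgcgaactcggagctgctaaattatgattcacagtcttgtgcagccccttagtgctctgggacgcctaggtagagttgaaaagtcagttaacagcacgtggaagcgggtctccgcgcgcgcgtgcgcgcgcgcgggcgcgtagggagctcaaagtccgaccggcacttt
The Rhox5 window held 4 matches: CCAAT on both strands at -102 to -95 from the start site (the 2 matches overlap), CCAAT at -64 to -60, and CCGGAA on the opposite strand at -33 to -28. The Esx1 window held 0 matches to these 4 words. Of 32851 RefSeq windows of the same length, 33.8% held the CCAAT box, 12% the ETS core, 12.4% the TATA box and 32.7% the GC box on either strand. The Rhox5 window had 4 CG pairs and the Esx1 window 24, beside a median of 6. S100a4 and S100a6 are neighbors on chromosome 3, at chr3:90603770-90606045 and chr3:90612894-90614414.

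Levels are means over cells of UMIs per 10000 UMIs of the cell. Rhox5 stood at 2.80, 2.11, 5.09 and 4.60 in the cluster 0 cells of the brains with hashtags 1, 2, 3 and 4. Esx1 stood at 2.78, 1.24, 5.57 and 3.80 in the same order. The brains with hashtags 3 and 4, which hold nearly all of the cluster, lay above the other pair for both genes. S100a6 stood at 65.9, 42.7, 109 and 93.2, and S100a4 at 2.95, 2.15, 4.65 and 4.63. All 4 markers of the label are thus present, and each had at least 21 UMIs in every brain. They were chosen with earlier results of these data known, so their presence is a description and no independent support for the label. In the hashtag 3 and 4 brains Rhox5 was also at 5.35 and 5.08 in cluster 2, 4.97 and 4.92 in cluster 7 and 4.10 and 4.31 in cluster 10, so the transcript does not set cluster 0 apart from these 3. Cluster 9 came next, with Rhox5 at 3.55 and 3.26, Esx1 at 3.82 and 2.59 and S100a6 at 86.3 and 68.5.

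To compare shares of cells at 1 depth, each cell was thinned to 5000 UMIs, and the 5 and 6 shallower cells of hashtags 3 and 4 were left out. A Rhox5 UMI was then found in 89.0% of 419 cluster 0 cells of the hashtag 3 brain (exact binomial 95% interval 85.6 to 91.8) and in 86.1% of 698 of the hashtag 4 brain (83.3 to 88.6). Without thinning the shares were 97.9% and 97.4%. The same thinned shares in cluster 1, whose leading transcript is Ttr, were 32.5% and 37.6%. These are the shares to read cluster 0 against, and whether they come from free RNA or mixed droplets was not tested. For Esx1 they were 89.5% and 79.1% in cluster 0 and 22.5% and 24.9% in cluster 1, and for S100a4 76.4% and 75.8% against 19.5% and 23.2%. S100a6 was found in 100% of thinned cluster 0 cells of both brains, and in 98.8% and 100% of those of cluster 1, so its share separates nothing while its level does (109 and 93.2 against a mean of 21.6). These intervals cover counting error only.

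**Figure D1:**
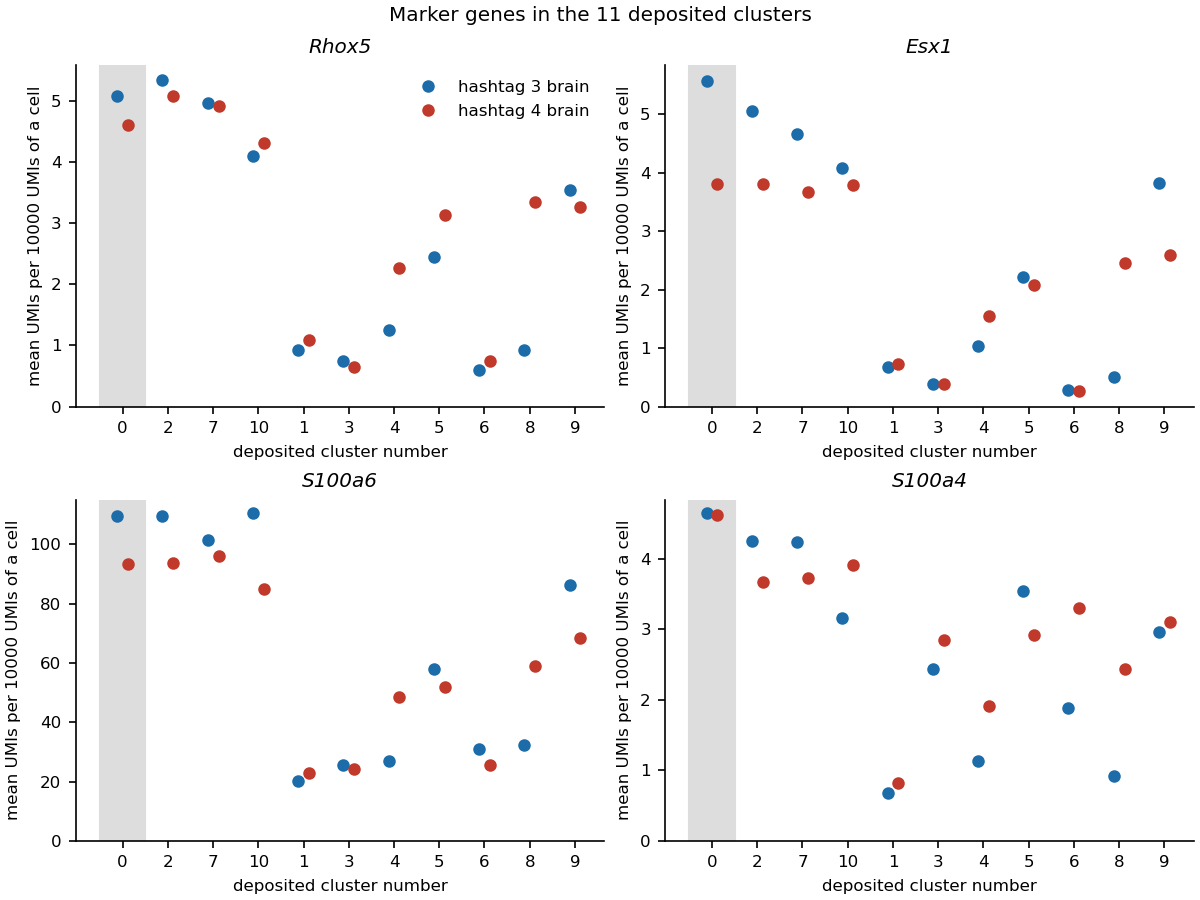
Mean level (UMIs per 10000 UMIs of a cell, linear axes from 0) of the 4 markers in each deposited cluster, 1 point a brain for hashtags 3 and 4; the gray band marks cluster 0. Rhox5, Esx1 and S100a6 are highest in clusters 0, 2, 7 and 10, with cluster 9 next (Rhox5 at 3.55 and 3.26), while S100a4 is spread more evenly over the other clusters.

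The brains differed widely in how much of cluster 0 they held. It made up 5.21% of the 844 cells of the hashtag 1 brain (44 cells, interval 3.81 to 6.94) and 3.41% of the 410 cells of the hashtag 2 brain (14 cells, 1.88 to 5.66). In the hashtag 3 brain it made up 30.6% of 1385 cells (424 cells, 28.2 to 33.1), and in the hashtag 4 brain 34.7% of 2029 cells (704 cells, 32.6 to 36.8). When only cells were kept in which 80% or more of the hashtag counts matched the assigned brain, the shares were 2.51%, 0.0%, 34.2% and 38.5%. In the hashtag 2 brain this was 0 of 154 cells, which allows a share of up to 1.95%.

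Not all members were alike, and the difference lay along the brains. Ttr reached at least 1000 per 10000 in 19 of 44 cluster 0 cells of the hashtag 1 brain and in 9 of 14 of the hashtag 2 brain, but in 6 of 424 and 5 of 704 of the hashtag 3 and 4 brains. Between 200 and 1000 there were 17 cells in all, and 1130 cells lay under 200. In the 39 Ttr-high cells the median UMI total by brain was 3194 to 4598, the median mitochondrial share 10.4 to 11.4% and the median S100a6 level 6.83 to 11.4. In the other members the medians by brain were 12008 to 13654 UMIs, 1.297 to 1.33% and 89.6 to 112.

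Rhox5 followed the same line. Over summed UMIs it stood at 0.137, 1.39, 0.0 and 0.0 in the Ttr-high cells of hashtags 1 to 4 and at 5.04, 3.69, 5.19 and 4.68 in the rest. The Ttr-high groups are 19, 9, 6 and 5 shallow cells, so their Rhox5 levels rest on very few UMIs. The 25 and 5 Ttr-low cells of the hashtag 1 and 2 brains thus had Rhox5 near the level of the other brains, but the assigned hashtag made up a median of 67.1% and 60.7% of their hashtag counts, against 89.6% and 95.1% in hashtags 3 and 4. Of the 10 hashtag 1 cells that met the 80% bound, 4 were Ttr-low; the hashtag 2 brain had 0 such cells. Whether the remaining cells are mixed droplets or cells of those brains cannot be told apart, as no doublet caller was run on this 1 pool.

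**Figure D2:**
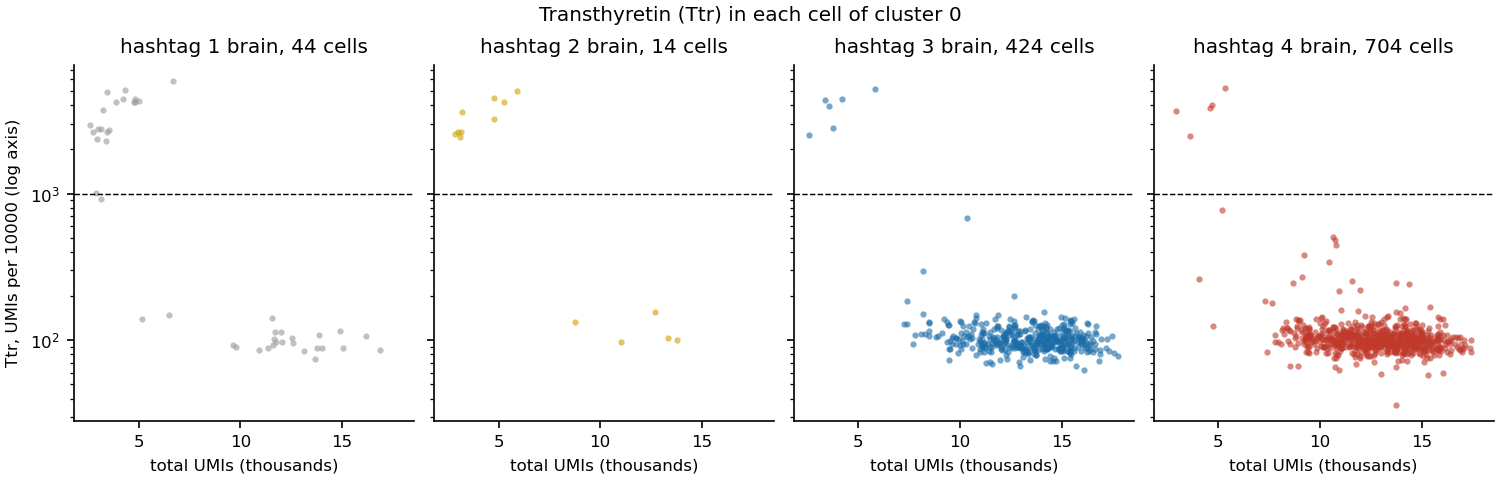
Ttr (UMIs per 10000, log axis) against the total UMIs of each cell of cluster 0, 1 panel a brain; the dashed line is at 1000 per 10000. The Ttr-high cells lie at low UMI totals and are 28 of the 58 members from the hashtag 1 and 2 brains, against 11 of the 1128 from the other pair.

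Xist, named after its values were seen, divided the cells in the same way. Its level in cluster 0 was 5.32, 6.72, 0.383 and 0.367 in hashtags 1 to 4. In cluster 1 of the same brains it was 9.36, 9.33, 6.51 and 6.12, and in cluster 3, which carried the CD45 tag, 21.0, 21.3, 13.96 and 12.02. In the hashtag 3 and 4 brains Xist in cluster 0 lay below its level in each of the 7 clusters outside 0, 2, 7 and 10, where the lowest was 2.73. Over summed UMIs of the Ttr-low members alone it was 0.609 (18 UMIs), 0.503 (3 UMIs), 0.305 and 0.304. The thinned share of cells with an Xist UMI was 15.8% and 14.2% in cluster 0 of hashtags 3 and 4, against 87.0% and 85.6% in cluster 1. How much of the cluster 0 signal is free RNA was not tested.

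In the hashtag 3 and 4 brains, which alone held 50 or more cells of clusters 0, 2 and 7, the transcripts of cluster 0 were led by the translation machinery. The 79 cytosolic ribosomal protein genes took 3745 and 3669.8 of each 10000 UMIs, against 1003 and 1173 in cluster 1. They took 3557 and 3531 in cluster 2 and 3802 and 3762 in cluster 10, so this is not particular to cluster 0. Levels are shares of a cell's UMIs, so the high Ttr of cluster 1 lowers its other levels. Rpl13 alone stood at 193 and 184. Outside ribosomal and mitochondrial genes the 12 highest transcripts were Ttr, Malat1, S100a6, Tmsb10, Actb, Gm10076, Fth1, Lgals1, Eef1a1, Gapdh, Ppia and Pfn1. Malat1, a nuclear noncoding RNA, stood at 86.9 and 117, and Tmsb10, an actin-sequestering peptide, at 87.2 and 105. Ttr had a median over cells of 100.1 and 100.5, and its mean level in cluster 1 was 3183. In the same brains its median was 126 and 129 in cluster 3, 107 and 104 in cluster 4 and 92.2 and 92.5 in cluster 7. Its place among the highest transcripts is thus not particular to cluster 0, and how much is free RNA was not tested.

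Of 21 epithelial genes measured, 2 reached a level of 0.5 per 10000 in cluster 0 or 2, the keratin Krt8 (2.52 and 3.11) and the secreted inhibitor Wfdc2 (2.27 and 3.31). Of all 17551 genes, 13.5% reached it. Wfdc2 was at a mean of 2.48 in cluster 1 as well. Of the 25 mesenchymal genes 12 reached that level, led by the galectin Lgals1 (57.9 and 53.5), the intermediate filament Vim (11.9 and 11.6) and the actin-binding Tagln2 (4.15 and 4.45). Vim was at a mean of 2.32 in cluster 1 and 4.78 in cluster 3.

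The growth and metabolic genes were well covered. All of the 30 genes of Myc targets and ribosome biogenesis were measured, and they summed to 126 and 127 per 10000, against 38.1 and 44.8 in cluster 1. The translation factor Eif5a (20.3 and 18.8), the nuclear transport GTPase Ran (12.8 and 14.5) and the nucleolar chaperone Npm1 (11.2 and 11.2) led them. The same genes summed to 127 and 131 in cluster 2 and to 126 and 119 in cluster 10, so these sums do not set cluster 0 apart. Glycolysis genes summed to 84.0 and 82.7, led by Gapdh (32.3 and 29.2) and the lactate dehydrogenase Ldha (11.01 and 11.1), against 42.8 and 44.4 in cluster 1. They summed to 88.0 and 83.0 in cluster 2 and 77.1 and 81.2 in cluster 10. Against cluster 1 the 13 mitochondrially encoded genes went the other way, with 149.7 and 149.1 in cluster 0 and 682 and 702 in cluster 1. In clusters 2 and 10 they summed to 164 and 151, and 184 and 184. Of secreted factors, the cytokine Mif (21.2 and 21.0) and the galectin Lgals3 (16.5 and 18.7) were highest, and the chemokines Ccl2 (0.852 and 1.33) and Ccl5 (0.821 and 1.33) were low.

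By the ratio to the highest level in any cluster other than 2 and 7, the genes named include Eef1e1, Idh3g, Utp11l, Cdca3, Fkbp11, Sac3d1, Sf3b4, S100a4, Capg, Tomm40 and Strap. The ratios were small, from 1.29 for Strap to 1.37 for Eef1e1, a component of the aminoacyl-tRNA synthetase complex (0.902 and 1.11 in cluster 0, and a mean of 0.707 in cluster 9). Over the 11 clusters the 5 genes most like Rhox5 were Esx1 (r = 0.995), the cochaperone Fkbp4 (0.992), the AP-1 member Fosl1 (0.990), Dap (0.988) and the prolyl isomerase Fkbp11 (0.988). These are descriptions over 11 points that share 1 pool and its free RNA, with clusters 0, 2, 7 and 10 at the high end.

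Cluster 0 was a band of depth. In the hashtag 4 brain, taking Ttr-low cells of clusters 10, 0, 2 and 7 together, cluster 10 held 82.1% of those with 6000 to 8000 UMIs and cluster 0 held 99.1% of the 231 with 12000 to 14000. Between 16000 and 18000 UMIs, 22% were in cluster 0 and 78.0% in cluster 2. From 18000 to 20000 UMIs 98.1% were in cluster 2, and from 28000 on all cells were in cluster 7. The hashtag 3 brain gave the same order, with 97.6% in cluster 0 at 12000 to 14000 UMIs, 33.6% at 16000 to 18000 and 0.0% from 18000 on. Of Ttr-low cells, 68.8% and 77.7% of cluster 2 and 90.5% and 89.0% of cluster 7 in the 2 brains had more UMIs than the deepest cell of cluster 0 (17795 and 17425), and 100% of cluster 10 lay under the 10th percentile of cluster 0.

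**Figure D3:**
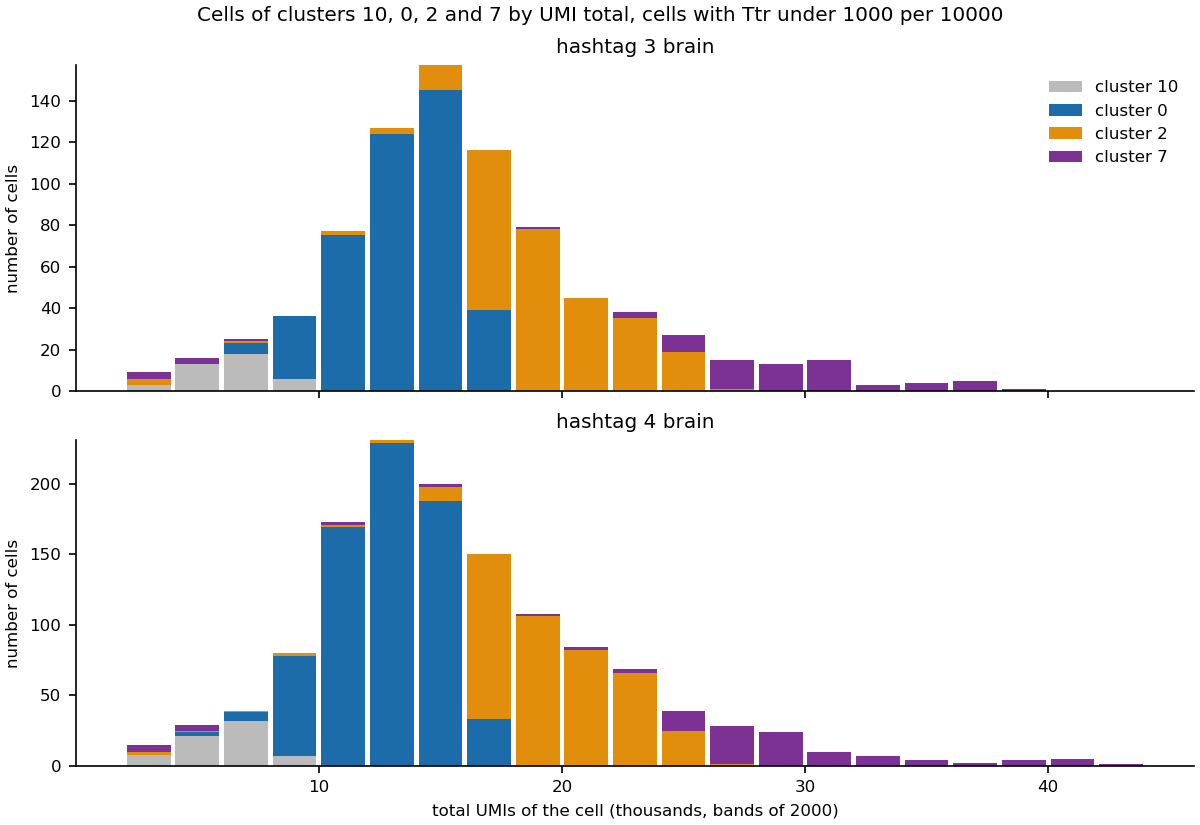
Number of cells of clusters 10, 0, 2 and 7 in bands of 2000 UMIs, stacked, for the hashtag 3 and hashtag 4 brains; cells with Ttr of at least 1000 per 10000 are left out. The 4 clusters follow each other along the axis, and the change from cluster 0 to cluster 2 falls between 14000 and 18000 UMIs in both brains.

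The profiles behind these numbers were close. Over genes of 0.5 per 10000 or more in either cluster, log2 levels of cluster 0 correlated with those of cluster 2 at r = 0.993, cluster 10 at 0.984 and cluster 7 at 0.978, and with the next cluster, 9, at 0.899. These are correlations across genes, which are not independent replicates, within 1 pool. The share of genes past 1.5-fold on the mean of both brains was 0.846% for cluster 2, 2.42% for cluster 10, 3.96% for cluster 7, 14.6% for cluster 9 and 69.4% for cluster 1.

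The comparisons with clusters 2 and 7 are descriptions by size, since the clusters were made from the expression of these cells. A gene was called where log2(level + 0.1) differed by at least 1.5-fold in the same direction in both counted brains. Cluster 0 was higher than cluster 2 in 0 of 2363 genes (0.0%) and lower in 12 (0.508%), and the median difference over all genes was -0.01. No test was run, so 0 is a count by size and has no p beside it. The called genes were the MHC class II genes H2-Aa, H2-Eb1 and H2-Ab1 with the invariant chain Cd74, the leukocyte antigen Cd52, the choroid-rich Enpp2, and the cell cycle genes Hist1h2ap, Hist1h2ae, Ube2c, Top2a, Cdk1 and Kpna2. On the mean of both brains H2-Aa, H2-Eb1, Cd52, Hist1h2ae, Kpna2 and Cdk1 were under 0.5 in cluster 0. They were compared only because cluster 2 reached that level, which fixes their direction.

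Hist1h2ap, a replication-dependent histone, was at 12.8 and 13.2 in cluster 0 and 24.8 and 26.7 in cluster 2 (log2 differences -0.95 and -1.01). Ube2c, which drives the exit from mitosis, was at 0.770 and 1.06 against 1.40 and 2.18 (-0.79 and -0.98). Top2a, the topoisomerase of dividing cells, was at 0.610 and 0.774 against 1.005 and 1.32 (-0.64 and -0.70). In both brains each of these 3 was lower in cluster 0. The thinned share of cells with a Top2a UMI was 22.2% and 24.4% in cluster 0 and 35.1% and 39.4% in cluster 2.

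The cell cycle list moved as a whole by less. Of 21 genes of G2 and M phase at the level, 3 were lower than in cluster 2 (Cdk1, Ube2c and Top2a), 17 were below 0 in both brains, and the median difference was -0.23. Cdk1 was at the level through cluster 2 only. The list has 52 genes, and the level leaves out the rest. Of 9 S phase genes 0 were called, 7 were below 0 in both brains, and the median was -0.23. Over all 2363 genes 33.9% were below 0 in both brains.

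The UMIs of Cd74 were uneven over cells. It was at 1.05 and 1.10 in cluster 0 and 3.51 and 2.53 in cluster 2, but at 5000 UMIs a Cd74 UMI was found in 38.9% and 42.3% of cluster 0 cells and 36.9% and 43.2% of cluster 2 cells. The top 5% of cells held 25.2% and 26.7% of Cd74 UMIs in cluster 0, and 41.1% and 44.6% in cluster 2. With cells of at least 10000 UMIs, 6 genes were lower, all of them from the cell cycle group (Ube2c, Cdk1, Top2a, Kpna2, Hist1h2ap and Hist1h2ae), and 1 was higher (Hbb-bt, 0.97). There Cd74 was at -0.13, H2-Aa at -0.14, Cd52 at -0.27 and Enpp2 at -0.07. With cells of 10000 to 20000 UMIs, 3 genes remained lower (Ube2c, Hist1h2ap and Hist1h2ae), and Top2a (-0.60), Cdk1 (-0.54) and Kpna2 (-0.53) were no longer past the fold in both brains.

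**Figure D4:**
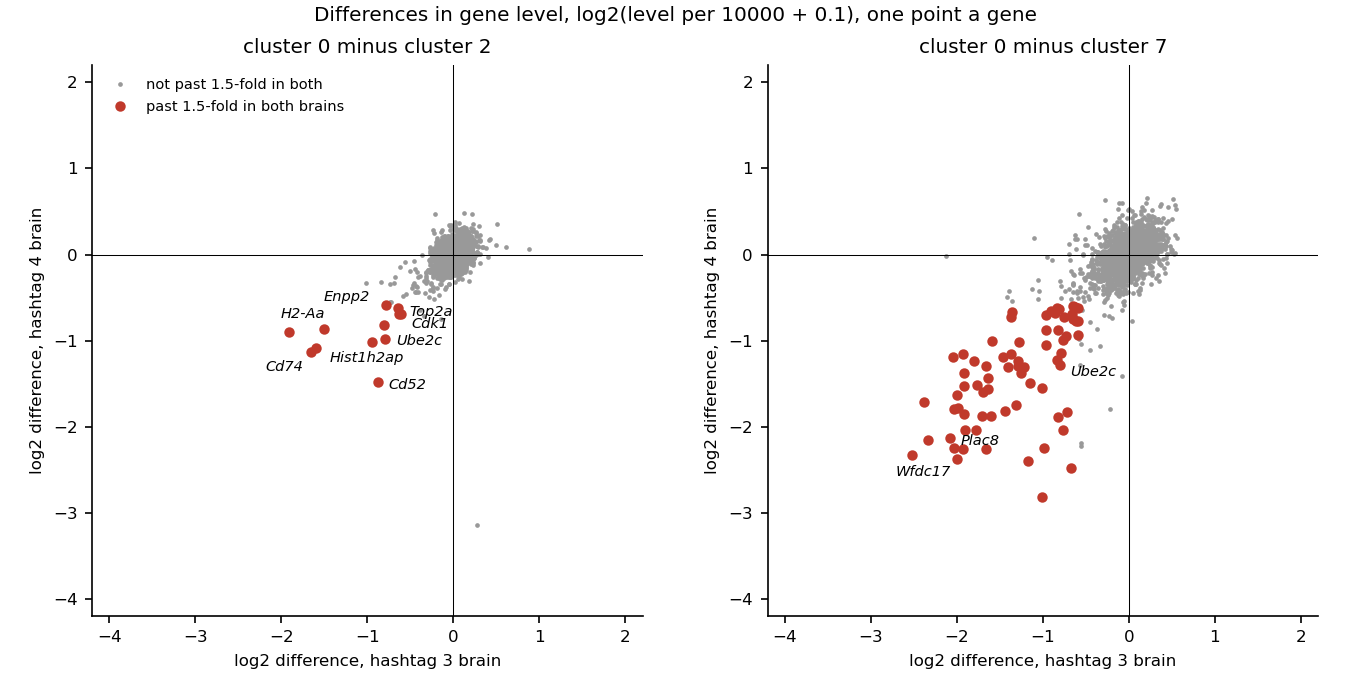
Log2 difference in level, cluster 0 minus cluster 2 (left) and cluster 0 minus cluster 7 (right), in the hashtag 3 brain (horizontal) and the hashtag 4 brain (vertical), 1 point a gene with a level of 0.5 per 10000 in either cluster. All red points, called past 1.5-fold in both brains, lie below 0: 12 on the left and 70 on the right.

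Between 10000 and 20000 UMIs cycle genes were higher in the deeper cells when the 4 clusters were pooled. Among Ttr-low cells thinned to 5000 UMIs, a Top2a UMI was found in 14.3% of the 77 cells with 10000 to 12000 UMIs, 24.8% of the 157 with 14000 to 16000 and 41.8% of the 79 with 18000 to 20000 in the hashtag 3 brain. In the hashtag 4 brain the shares were 15.0% of 173, 34.0% of 200 and 43.5% of 108. Hist1h2ap stood at 6.18, 17.0 and 23.9 in these bands of the hashtag 3 brain, and at 7.24, 16.8 and 25.9 in the hashtag 4 brain. At 14000 to 16000 UMIs 92.4% and 94.0% of these cells were in cluster 0. From 18000 to 20000 UMIs 98.7% and 98.1% were in cluster 2, so the top of the rise lies outside cluster 0. At 8000 to 10000 UMIs the Top2a shares were 22.2% of 36 and 11.3% of 80 cells. At 6000 to 8000 UMIs they were 32.0% of 25 and 20.5% of 39, so the order with depth did not extend below 10000 UMIs. Above 20000 UMIs there was no steady order. The shares were 37.8%, 31.6% and 33.3% in the next 3 bands of hashtag 3. In hashtag 4 they were 46.4%, 43.5% and 30.8%, then 53.6% of 28 cells with 26000 to 28000 UMIs and 58.3% of 24 with 28000 to 30000. Rhox5 was at 5.12, 5.24 and 5.57 at 10000 to 12000, 14000 to 16000 and 18000 to 20000 UMIs of the hashtag 3 brain. It was at 4.57, 4.71 and 4.63 in these bands of the hashtag 4 brain. The ribosomal protein genes took 3806, 3752 and 3714, and 3695, 3677 and 3623, of each 10000 UMIs.

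**Figure D5:**
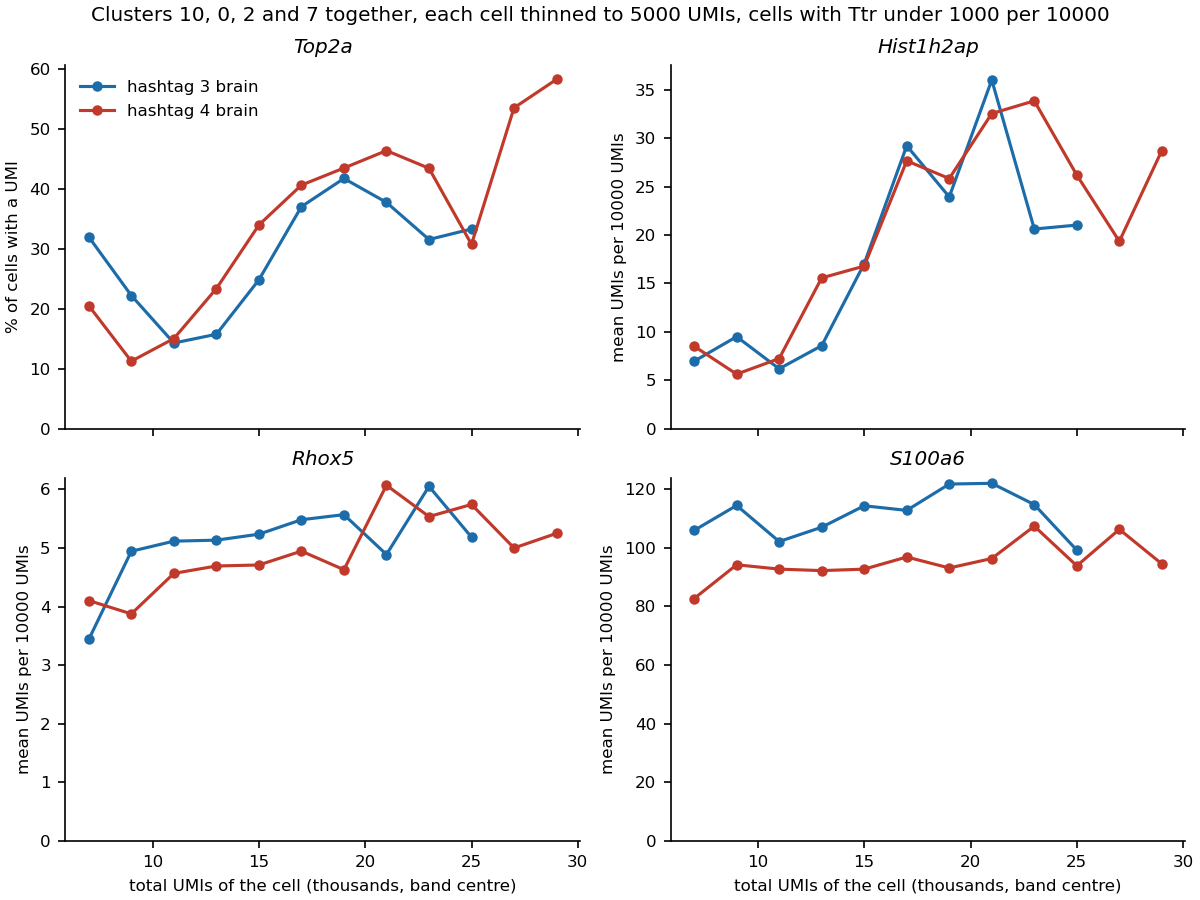
Share of cells with a Top2a UMI and mean level of Hist1h2ap, Rhox5 and S100a6 in bands of 2000 UMIs, over Ttr-low cells of clusters 10, 0, 2 and 7 thinned to 5000 UMIs, 1 line a brain; bands with under 20 cells are not drawn. Top2a and Hist1h2ap are higher at 18000 to 20000 UMIs than at 10000 to 12000 in both brains, while Rhox5 goes from 5.12 to 5.57 and from 4.57 to 4.63.

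Cluster 0 was higher than cluster 7 in 0 of 2451 genes (0.0%) and lower in 70 (2.86%), with a median difference of -0.01. Ranked by the smaller of the differences in the 2 brains, the lower genes were led by Wfdc17, Ms4a4c, Plac8, Lyz2, Ms4a6c, Cd52, Ctss, Cd53, Cldn5 and Ly6c2, most of them genes of monocytes and other leukocytes, with the endothelial tight junction gene Cldn5 among them. Lyz2, lysozyme, was at 1.28 and 1.38 in cluster 0 and at 5.54 and 6.94 in cluster 7 (log2 differences -2.03 and -2.25). Wfdc17 was at 0.294 and 0.307 against 2.15 and 1.95, and Cldn5 at 0.359 and 0.367 against 1.78 and 1.52. Xist was among the 70, at 0.383 and 0.367 against 2.42 and 1.43.

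Many of these genes were highest in other cell groups. Of the 70 genes, 52 had their highest level outside the compared clusters in the CD45-tagged clusters 3 and 6, 13 in cluster 4 and 5 elsewhere. Over all 2451 genes 24.5% were highest in clusters 3 and 6 and 10.2% in cluster 4. The 5 immune markers summed to 1.95 and 1.89 in cluster 0, 7.05 and 8.05 in cluster 7 and 74.1 and 84.7 in cluster 3, and none of the 5 was at 0 in cluster 0. The 6 endothelial markers summed to 1.11 and 1.20, 3.91 and 4.75, and, in cluster 4, 72.8 and 38.2. Most of the 70 genes were under 0.5 in cluster 0, among them Wfdc17, Ms4a4c, Plac8 (0.319 and 0.338), Ms4a6c, Cd52, Cd53, Cldn5, Ly6c2 and Xist. They were compared only because cluster 7 reached that level, which fixes their direction. The counts of 70 and 52 rest partly on this rule.

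The Lyz2 UMIs of cluster 7 were concentrated in few cells. At 5000 UMIs a Lyz2 UMI was in 43.7% and 49.3% of cluster 0 cells and 44.4% and 53.1% of cluster 7 cells, but the top 5% of cells held 24.2% and 20.2% of Lyz2 UMIs in cluster 0 and 77.0% and 74.9% in cluster 7. Cluster 7 had 8 and 11 cells under 10000 UMIs, whose median CD45 tag count was 5923.5 and 4917, against 58.5 and 64 in its deeper cells and 43 and 44 in the deeper cells of cluster 0. With cells of at least 10000 UMIs 10 genes were lower, and 7 of them were among the 70. They were Ube2c (-1.13), Kpna2 (-0.90), Top2a (-0.73), Cdk1 (-0.85), Hist1h2ap (-0.80), Hist1h2ae (-0.94), Tm4sf1, C1qc, Hba-a1 and Ptcra. Under that bound Insig1, a brake on cholesterol synthesis, was higher in cluster 0 (0.72), and in all cells it was at 0.939 and 0.592 against 0.658 and 0.373.

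Fos and Junb, immediate early genes of the AP-1 family, and the interferon-induced Isg15 were also among the 70. Junb was at 2.12 and 2.02 in cluster 0, 3.66 and 3.42 in cluster 7 and a mean of 16.6 in cluster 3. Fos was at 1.27 and 1.41 against 4.21 and 3.61, and Isg15 at 1.35 and 1.49 against 2.07 and 2.63. None of the 3 was called with cells of at least 10000 UMIs, where the mean log2 differences were -0.07 for Junb, -0.28 for Fos and -0.32 for Isg15. The called members of their lists, 6 immediate early and 3 interferon-induced genes, numbered 0 and 0 under that bound. Only 3 of the 6 and 1 of the 3 had reached the level of 0.5 in cluster 0 itself, and the others were compared through cluster 7.

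Few genes of any kind were called against cluster 2 (0.508% lower) or cluster 7 (2.86% lower), and a list of this size would hold few by that share. None was called among 74 oxidative phosphorylation, 79 ribosomal protein, 12 mitochondrially encoded, 16 heat shock or 27 Myc target genes at the level. Small shifts ran through whole lists. Of the 79 ribosomal protein genes 67 were above 0 in both brains against cluster 2 and 73 against cluster 7 (medians 0.06 and 0.12), while 28.4% and 32.4% of all genes were. Of the 74 oxidative phosphorylation genes 52 and 55 were below 0 in both brains (medians -0.05 and -0.12), while 33.9% and 37.1% of all genes were. Myc itself was at 0.889 and 1.12 in cluster 0, 0.748 and 0.856 in cluster 2 and 0.666 and 0.713 in cluster 7, short of the fold.

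The antibody tags come from a library that was counted apart from the cDNA. Median CD45 tag counts in cluster 0 were 38, 37.5, 43 and 43 in hashtags 1 to 4, and 42, 47, 52 and 51 in cluster 2. Each brain was lower in cluster 0, by a mean log2 difference of -0.25 (SD 0.08, n = 4 brains; exact two-sided sign-flip permutation p = 0.125, adjusted p = 0.1875 over 12 comparisons). With 4 brains 0.125 is the smallest p the test can give, so no tag could pass 0.05. In both comparisons hashtags 1 and 2 enter with 44 and 14 cluster 0 cells, of which 10 and 0 met the 80% hashtag bound. These 4 values may therefore not be fully independent brains. CD11b (-0.24), CD86 (-0.33) and CD4 (-0.48) were also lower in 4 of 4 brains, and as shares of all 6 tags 0 of the 6 were. The CD86 and CD4 medians were low counts. In hashtags 3 and 4 they were 8 against 9 for CD86 and 6 against 7 for CD4. The hashtag 2 brain differed most, with 6 against 11 and 5 against 12. In cluster 1 the medians over all cells were 10 for CD86 and 9 for CD4.

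Against cluster 7 the same 4 tags were lower in 4 of 4 brains, CD45 by -0.55 and -0.64 in hashtags 3 and 4 and by -6.62 and -5.99 in hashtags 1 and 2, where cluster 7 has 9 and 6 cells. The exact sign-flip p was 0.125 for each (adjusted p = 0.1875). As shares of all 6 tags 0 were lower in 4 of 4 brains, and the mean differences of CD11b, CD86 and CD4 turned to 0.020, 0.83 and 1.45. CD45 counts reached 300 in 2.70% of cluster 0 cells, 8.74% of cluster 2, 23.1% of cluster 7 and 99.8% of cluster 3. The gene for CD45, Ptprc, had a UMI at 5000 UMIs in 0.716% and 3.58% of cluster 0 cells of hashtags 3 and 4, beside 1.18% and 3.31% in cluster 1.

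Between the hashtag 3 and 4 brains, within cluster 0, 14 of 2406 genes were higher in hashtag 3 (0.582%) and 17 lower (0.707%), by 1.5-fold. With 1 brain a side there is no test and no replicate of this difference. Cirbp, the cold-inducible RNA-binding protein, was at 1.87 UMIs per 10000 over the summed cells of hashtag 3 (exact Poisson 95% interval 1.76 to 1.99) and 0.673 in hashtag 4 (0.620 to 0.729). Serpinh1, the collagen chaperone of the endoplasmic reticulum, went the other way, at 2.83 (2.70 to 2.98) and 4.66 (4.52 to 4.81). In clusters 2 and 7 of the same brains Cirbp was at 1.68 and 0.615, and 1.62 and 0.812, and Serpinh1 at 2.85 and 4.83, and 3.01 and 4.49. These clusters share brains with cluster 0, so they repeat the difference without adding a brain.

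Red cell transcripts made up part of the list. Of 4 hemoglobin genes at the level, 4 were higher in hashtag 3, Hbb-bs at 3.58 and 1.89 and Hba-a1 at 2.08 and 0.842. In cluster 1, Hbb-bs was at 1.27 and 1.60, and in cluster 4 at 45.6 and 21.1. In hashtag 3 the top 5% of cluster 0 cells held 68.0% of its UMIs after thinning, and in hashtag 4 35.3%. The interferon-induced Ifi27l2a (0.633 and 1.07), the chemokine Ccl5 (0.821 and 1.33) and the vesicle protein Vamp5 (1.36 and 2.12) were higher in hashtag 4, while H1f0, a linker histone (2.31 and 1.42), was higher in hashtag 3. Esx1 differed by 0.54 and Rhox5 by 0.14 on the log2 scale, short of the fold.

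Among the cells of cluster 0, the Fano factor (variance over mean) at 5000 UMIs was lower for Rhox5 and Esx1 than for S100a4 and S100a6. It was 1.35 and 1.31 for Rhox5 and 1.44 and 1.42 for Esx1, where the median of 1139 genes was 1.12 in both brains. For S100a4 it was 2.47 and 2.40 and for S100a6 7.38 and 6.91, above the 95th percentile of these genes (1.92 and 1.93). Ttr, Actb, Malat1, Hbb-bs, Hist1h2ap, Gm7120, the metallothioneins Mt1 and Mt2 and S100a6 had the highest values. Hist1h2ap was at 29.2 and 25.2, with 40.4% and 36.8% of its UMIs in the top 5% of cells. The Fano factor was not adjusted for level. S100a6 stood at 109 and 93.2 per 10000 against 5.09 and 4.60 for Rhox5, so their factors do not compare relative spread. The summed level of G2 and M phase genes ran from a 10th percentile of 15.2 and 15.8 through medians of 39.9 and 38.9 to a 90th percentile of 75.9 and 76.7 per 10000.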

How the data were processed

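The 3 libraries of 1 pool of 4 brains, for cDNA, antibody tags and hashtags, were read. Cell Ranger 2.1, Seurat 2.3.4 and mm10 come from the submitters' processing notes, which give them no role; the tags were counted with CITE-seq-Count v1.3.4, per the series' design text. How cells and genes were filtered, and what the clustering took as input, is not given in the sources used here. Gene values were deposited by the authors as the natural log of 1 plus UMIs per 10000. Per cell, the authors deposited the UMI count, tag and hashtag counts, the mitochondrial fraction, a hashtag class and a cluster number. UMI counts were recovered from the deposited log values and totals: 99.8% of nonzero values were whole within 0.01, and cell sums lay within 10 UMIs of the deposited total. Totals per cell ran from 2495 to 43038 UMIs over all cells and from 2576 to 17795 in cluster 0 (median 13009).

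A level is the mean over cells of UMIs per 10000. Differences are on log2(level + 0.1), over genes of at least 0.5 per 10000 in either cluster, and called at 1.5-fold in each brain with at least 50 cells of both clusters (hashtags 3 and 4). Since the cells were clustered on their genes, no test was run between clusters. Tags were compared by an exact sign-flip permutation test over brains with Benjamini-Hochberg adjustment. Its results refer to these 4 brains only. Where all 4 brains differed in the same direction, the exact sign-flip permutation test gave its smallest possible value, whatever the spread between brains. Genes were named by rank: the 12 highest, the 12 with the largest ratio to other clusters, the 10 with the largest difference each way from clusters 2 and 7 (by the smaller of the 2 brains), 6 each way between brains, leading and called list members, and 5 most like Rhox5. A gene that this rule names is not reported here. Of the others, Xist, Tm4sf1, C1qc, Ptcra, Gm7120 and any gene named for its count or spread were chosen after their values were seen. Hba-a1 and Hbb-bt are named by the rule as leading list members. The members and lists were chosen with earlier results of these data known. All deposited cells were kept and doublets were not called; own hashtag at or above 80% served as an alternative, beside summed UMIs, size factors, pseudocount, level, fold, thinning and left-out brains. The calls were tested on simulated Poisson counts from a shared profile, with planted changes larger than 1.5-fold. Extra spread between cells and mixed cells were not simulated, so calls near the bounds or resting on few cells were not tested. Python 3.11.15, numpy 2.4.6, scipy 1.17.1 and pandas 2.3.3 were used.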

Additional observations from a re-analysis of the deposited data

How the results depend on the processing

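Counts of genes lower in cluster 0 than in cluster 2 (12 as reported) were 6 with summed UMIs, 5 with a pseudocount of 0.5, 2 at a fold of 2, 6 thinned to 5000 UMIs, 3 with cells of 10000 to 20000 UMIs and 6 with cells of at least 10000 UMIs, where 1 gene was higher. Leaving out 1 brain gave 20 to 23 lower and 0 to 2 higher: 20 without the hashtag 3 brain and 23 without the hashtag 4 brain, each with all 12 among them. For cluster 7 (70 lower, 0 higher) the counts lower were 19 with summed UMIs, 38 with a pseudocount of 0.5, 204 at a level of 0.1, 41 at a fold of 2, 46 with own hashtag at 80% (2 higher), 33 thinned (5 higher) and 10 with at least 10000 UMIs (1 higher). Leaving out 1 brain gave 96 to 106 lower and 1 to 5 higher. The window of 10000 to 20000 UMIs left under 50 cells of cluster 7 in every brain and gave no value. Size factors moved the median of all genes by under 0.1. Brains 3 and 4 differed in 64 genes at a level of 0.1 and 4 at a fold of 2 (31 as reported).

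As shares of all 6 tags, 0 tags were lower in 4 of 4 brains in either comparison. Against cluster 2 the mean differences then turned to 0.016 for CD45, 0.021 for CD11b, 0.87 for CD3e, 0.025 for CD4 and 0.10 for CD25, and with Ttr-low cells to 0.25 for CD3e and 0.0073 for CD25. Against cluster 7 they turned to 0.020 for CD11b, 0.83 for CD86, 1.53 for CD3e, 1.45 for CD4 and 2.28 for CD25. The cause was not tested. Cluster 0 shares at own hashtag of 80% were 2.51%, 0.0%, 34.2% and 38.5%. Unthinned, 97.9% and 97.4% of cells had a Rhox5 UMI and 97.9% and 94.6% an Esx1 UMI in hashtags 3 and 4; at 2500 UMIs the shares were 70.5%, 65.3%, 73.3% and 57.8%. Of the named genes' values, 179 moved by more than the spread between the brains and 281 by less. The UMI windows and the bound on Ttr were chosen after seeing the data. The labelled libraries come from the same pool of cells, so they are not groups to compare. The tag test pairs clusters within each brain, and the gene calls compare clusters within each brain.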
